A study of Homo sapiens with 8 samples.

Results

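The genes described here encode the protein complexes that set up apical-basal polarity in epithelial cells, with PRKCZ, the atypical protein kinase C (PKC) zeta, as the lead gene. The 10 genes are PRKCZ, PRKCI, PARD3, PARD6B, CRB3, PATJ, LLGL1, LLGL2, SCRIB and DLG1. A gene was taken where a row of the deposited table carried its symbol and no other. All 10 had exactly 1 such row, out of 14271 genes with a row of that kind. The list was drawn up with the difference between the groups already known, so the values of these 10 genes are a description, with no p-value, and nothing is read from how many of them pass the threshold of the fit over all rows.

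The samples were PNT2 cells, an immortalized line derived from human prostate epithelium, and each was hybridized to 1 Affymetrix exon array. In the 4 siESRP samples the cells had received small interfering RNA (siRNA) against both ESRP1 and ESRP2, epithelial RNA-binding proteins that regulate splicing. In the 4 siGFP control samples they had received siRNA against green fluorescent protein. The knockdown lowered ESRP1, and the row that ESRP2 shares with NFATC3, without removing their signal. All samples came from this 1 cell line, and the labels give no culture of origin for a sample. The p-values therefore rest on sample-to-sample spread that could be technical. The values are 1 intensity per row. Most rows carry 1 gene symbol, and some genes have more than 1 row. Use of single exons was not measured.

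Polarity in an epithelial cell is kept by complexes that exclude one another from their own part of the membrane. On the apical side, the PAR complex joins the scaffolds PAR3 and PAR6 to an atypical PKC, and the Crumbs complex joins the transmembrane protein CRB3 to the scaffolds PALS1 and PATJ. On the basolateral side, Scribble, DLG1 and the LLGL proteins form the opposing module. The atypical PKC phosphorylates LLGL and PAR3 and so displaces them from the apical membrane, while LLGL in turn restrains the PAR complex. Repressors of the epithelial state such as ZEB1 and Snail are known to bind E-box sequences in the promoters of polarity genes, among them CRB3.

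For ESRP1, the arrays matched their labels. ESRP1 fell by 76.2%, from 2439 ± 169 to 582 ± 66.9 (SD, n = 4 each; log2 difference −2.07 ± 0.10 SE, limma adjusted p = 6.58e-05), and the row shared by ESRP2 and NFATC3 fell by 72.1% (limma adjusted p = 0.000336). ESRP2 had no row of its own, so the fall of that shared row cannot be assigned to it alone. The labels give a knockdown near 80% by quantitative RT-PCR. All 8 epithelial markers were measured, with a summed intensity of 26843 to 28379 over the siGFP arrays and 29650.1 to 30820.2 over the siESRP arrays. These markers did not all move together. CDH1, KRT18 and KRT19 rose, and KRT8, CLDN4 and CLDN7 were higher after knockdown without passing the limma threshold. KRT7 and EPCAM were lower, with log2 differences of −0.27 and −0.11, and did not pass either. Among markers of other cell types, those with a group mean of at least 100 were CD68 (551 ± 53.5 in siGFP and 747 ± 62.6 in siESRP), CD14, CSF1R, CDH5, COL1A1, INSM1 and SCG2. The summed intensity of 7 endothelial markers was 423 to 463 in siGFP and 475 to 567 in siESRP, and that of 7 fibroblast markers 494 to 561 and 406 to 483. Of the leukocyte markers 6 of 8, and of the neuroendocrine markers 4 of 6, had a row, with sums of 808 to 912 and 418 to 568 in siGFP and 908 to 1112 and 253 to 357 in siESRP. No marker was at 0 on all arrays. Of these lists, CD68 and CDH5 rose and CSF1R, TEK, COL1A1 and SCG2 fell; their part in the results was not tested. In such bulk samples, fewer cells of a type and less RNA per cell cannot be told apart.

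For the sequence context, RefSeq promoter windows (GRCh38.p14) matched 6 of the 10 genes: PRKCZ, PRKCI, CRB3, PATJ, LLGL1 and DLG1. The 250 bases before the window's transcript start were searched for the E-box CACCTG on both strands, where the reverse strand reads CAGGTG. It occurred in 3 of the 6 windows, those of CRB3, PATJ and DLG1, against 17.5% of 27305 windows of the same length. The windows of PRKCZ and LLGL1 are shown because these genes were higher in siESRP, as described next. Those of CRB3 and PATJ are shown because they held the most CACCTG sites, 5 and 2. Capitals mark CACCTG on either strand, and other E-box sequences were not searched for. Each sequence is written 5′ to 3′ on the gene's strand, which is the plus strand for all 4.
PRKCZ, chr1:2073414-2073663, inside the annotated gene: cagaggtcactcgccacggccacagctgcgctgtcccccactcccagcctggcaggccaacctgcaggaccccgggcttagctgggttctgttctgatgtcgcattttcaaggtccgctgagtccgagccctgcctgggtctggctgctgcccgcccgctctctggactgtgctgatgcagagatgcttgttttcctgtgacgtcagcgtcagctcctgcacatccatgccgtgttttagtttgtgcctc
LLGL1, chr17:18225385-18225634, upstream of the gene: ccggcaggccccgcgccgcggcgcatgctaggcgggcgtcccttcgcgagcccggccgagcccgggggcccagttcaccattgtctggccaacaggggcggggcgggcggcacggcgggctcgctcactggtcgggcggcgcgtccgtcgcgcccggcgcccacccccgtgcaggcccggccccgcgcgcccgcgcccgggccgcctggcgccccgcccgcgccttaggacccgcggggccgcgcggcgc
CRB3, chr19:6464021-6464270, inside the annotated gene: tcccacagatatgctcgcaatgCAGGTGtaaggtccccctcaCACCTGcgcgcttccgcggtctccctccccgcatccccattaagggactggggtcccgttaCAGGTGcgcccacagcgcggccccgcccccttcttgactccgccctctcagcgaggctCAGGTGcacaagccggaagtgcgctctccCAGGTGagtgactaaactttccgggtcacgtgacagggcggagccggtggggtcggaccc
PATJ, chr1:61742230-61742479, upstream of the gene: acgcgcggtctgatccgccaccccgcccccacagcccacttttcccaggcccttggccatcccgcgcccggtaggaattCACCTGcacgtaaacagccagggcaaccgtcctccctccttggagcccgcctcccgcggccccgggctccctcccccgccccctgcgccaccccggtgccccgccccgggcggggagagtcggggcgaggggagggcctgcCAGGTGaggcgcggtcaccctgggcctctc
The PRKCZ and LLGL1 windows held no CACCTG, which says only that these letters are absent from these windows. The PRKCZ and CRB3 windows precede transcripts that start inside the annotated gene, so they do not lie at its 5′ end. The base content differed, with 84.8% G or C in the LLGL1 window and 61.6% in that of PRKCZ.

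Between the groups, PRKCZ, PARD6B and LLGL1 were higher in siESRP, PARD3 was lower, and the other 6 genes differed by at most 0.17 on the log2 scale. These 4 passed the limma threshold of the fit over all rows (adjusted p under 0.05), where 20.2% of all 18495 rows passed, 10.9% higher and 9.31% lower in siESRP. Among genes with a mean intensity of at least 100, as all 10 have, 29.4% passed, 15.6% higher and 13.8% lower. The count of 4 in 10 was 3 on the deposited scale, without PARD3. The median log2 difference of the 10 genes was 0.10, against −0.02 for all rows and −0.04 for genes with a mean of at least 100. Values for each array are plotted by gene.

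**Figure D1:**
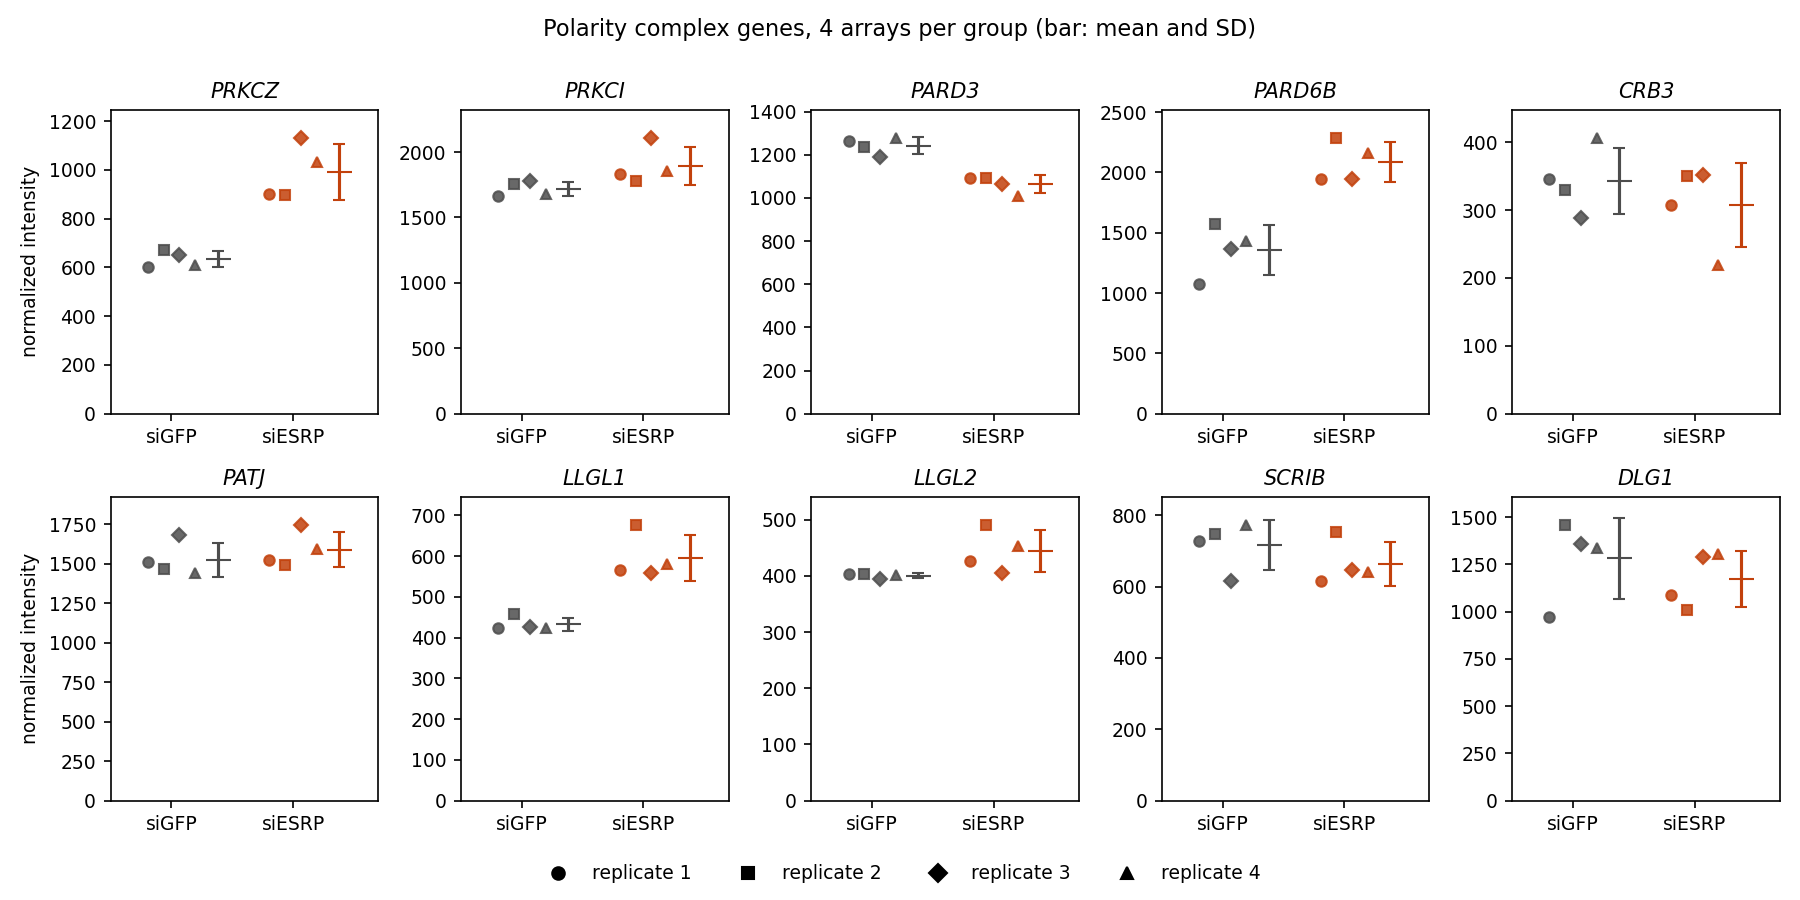
Quantile-normalized intensity (linear, from 0) of the 10 polarity genes on each array; marker shapes give the replicate number, and the bar beside each group is its mean with the SD (n = 4). The siESRP arrays of PRKCZ lie between 896 and 1133, above all siGFP arrays at 602 to 671, whereas the groups of CRB3, PATJ, SCRIB and DLG1 overlap.

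Of the PAR complex genes, PRKCZ encodes an atypical PKC isozyme, a kind that needs neither calcium nor diacylglycerol. Its normalized intensity was 602, 671, 650.5 and 612 on siGFP arrays 1 to 4 and 901, 896, 1133 and 1033 on siESRP arrays 1 to 4. Every siESRP array was above every siGFP array, with siESRP replicate 3 the highest. The means were 634 ± 32.5 and 990.5 ± 114 (SD, n = 4 each), a 1.56-fold difference (log2 difference 0.64 ± 0.09 SE). A dim row annotated to both GABRD and PRKCZ, which the choice of rows left out, went the other way. It fell from 59.0 ± 2.84 in siGFP to 47.0 ± 4.24 in siESRP (limma adjusted p = 0.0224), and cannot be assigned to either gene.

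PRKCI encodes PKC iota, the other atypical isozyme and the close relative of PRKCZ. Its intensity was 1665, 1753, 1776 and 1677 in siGFP and 1835, 1781, 2111 and 1856 in siESRP. The groups only just missed each other, since the lowest siESRP array, replicate 2, lay barely above the highest siGFP array, replicate 3. Means were 1718 ± 54.7 and 1896 ± 147, a log2 difference of 0.14 ± 0.06 SE. Within an array, the log2 ratio of PRKCZ to PRKCI was higher in siESRP by 0.50 on average, from 0.41 to 0.59 over the siESRP arrays against −0.03 to 0.05 over the siGFP arrays around their own mean. Both genes, like PATJ, had their highest value on siESRP replicate 3.

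PARD6B encodes a PAR6 scaffold, which links the atypical PKC to CDC42. It measured 1077, 1571, 1363 and 1429 in siGFP and 1949, 2288, 1944 and 2162 in siESRP. The groups did not overlap, although siGFP was wide, with replicate 1 the lowest. The means were 1360.0 ± 208 and 2086 ± 169, a 1.54-fold difference (log2 difference 0.63 ± 0.12 SE).

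PARD3 encodes PAR3, the scaffold that places the complex at cell junctions, and was the only one of the 4 to be lower. Its values were 1263, 1234, 1191 and 1279 in siGFP and 1093, 1093, 1064 and 1007 in siESRP. All siESRP arrays lay below all siGFP arrays, with the smallest spread of the 10 genes in siESRP (SD 0.06 on the log2 scale). Means were 1241 ± 38.8 and 1064 ± 40.5, a 1.17-fold difference (log2 difference −0.22 ± 0.04 SE). On the deposited scale its log2 difference was −0.24. The log2 ratio of PARD6B to PARD3 within an array was 0.85 higher in siESRP, from 0.72 to 0.98 over its arrays, against −0.35 to 0.23 over the siGFP arrays.

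Neither Crumbs complex gene separated the groups. CRB3, the transmembrane Crumbs protein of most epithelia, measured 346, 330.2, 288 and 407 in siGFP and 308, 351, 352 and 219 in siESRP. The groups overlapped and siESRP replicate 4 was the lowest of all arrays, which gave CRB3 the widest siESRP spread of the 10 genes (SD 0.32 on the log2 scale). Means were 343 ± 49.2 and 308 ± 62.3, a log2 difference of −0.17 ± 0.18 SE. Without siESRP replicate 4 the difference was −0.02. PATJ, the multi-PDZ scaffold that binds PALS1, measured 1510.1, 1467, 1682 and 1439.8 in siGFP and 1523, 1494, 1747 and 1593 in siESRP, with overlapping groups. Its means were 1525 ± 109 and 1589 ± 113 (log2 difference 0.06 ± 0.07 SE). Of the promoter windows searched, those of these 2 genes held the most CACCTG sites.

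Among the basolateral genes, LLGL1 and LLGL2 encode the human relatives of the fly tumour suppressor Lgl. LLGL1 measured 422, 457, 426 and 425 in siGFP and 565, 677, 559 and 579.6 in siESRP. No siGFP array reached the lowest siESRP array, and replicate 2 was the highest in either group. The means were 433 ± 16.4 and 595 ± 55.4, a 1.37-fold difference (log2 difference 0.46 ± 0.07 SE). LLGL2 measured 403, 404, 394 and 402 in siGFP and 427, 491, 405 and 453 in siESRP. Its siGFP arrays were the tightest of the 10 genes (SD 0.02 on the log2 scale), and the lowest siESRP array lay just above them. Means were 401 ± 4.53 and 444 ± 37.0 (log2 difference 0.14 ± 0.06 SE). The log2 ratio of LLGL1 to LLGL2 within an array was 0.31 higher in siESRP, from 0.25 to 0.35 over its arrays.

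SCRIB, the leucine-rich repeat scaffold of the module, measured 728, 746, 614 and 774 in siGFP and 616, 754, 646 and 641 in siESRP, and the groups overlapped. Its means were 716 ± 70.0 and 664 ± 61.4 (log2 difference −0.11 ± 0.09 SE). DLG1, a membrane-associated guanylate kinase scaffold, measured 973, 1461, 1357 and 1337 in siGFP and 1091, 1008, 1292 and 1305 in siESRP. Its siGFP replicate 1 was the lowest of all 8 arrays, and the siGFP spread was the widest of the 10 genes (SD 0.26 on the log2 scale). The means were 1282 ± 213 and 1174 ± 148 (log2 difference −0.12 ± 0.15 SE), and without siGFP replicate 1 the difference was −0.24.

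In all, 6 of the 10 genes had groups that did not overlap, where 24.6% of all rows and 35.6% of genes with a mean of at least 100 had that property. Besides the 4 above, these were PRKCI and LLGL2. The direction of each gene was the same under all 15 alternatives, which included the deposited scale and median scaling. Leaving out dim rows, the trended eBayes, the replicate block and averaging a gene's rows leave these log2 differences unchanged by construction. Only the other alternatives could have changed a direction. PRKCZ ran from 0.57 to 0.69, PARD6B from 0.52 to 0.70 and LLGL1 from 0.39 to 0.49 over these alternatives.

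**Figure D2:**
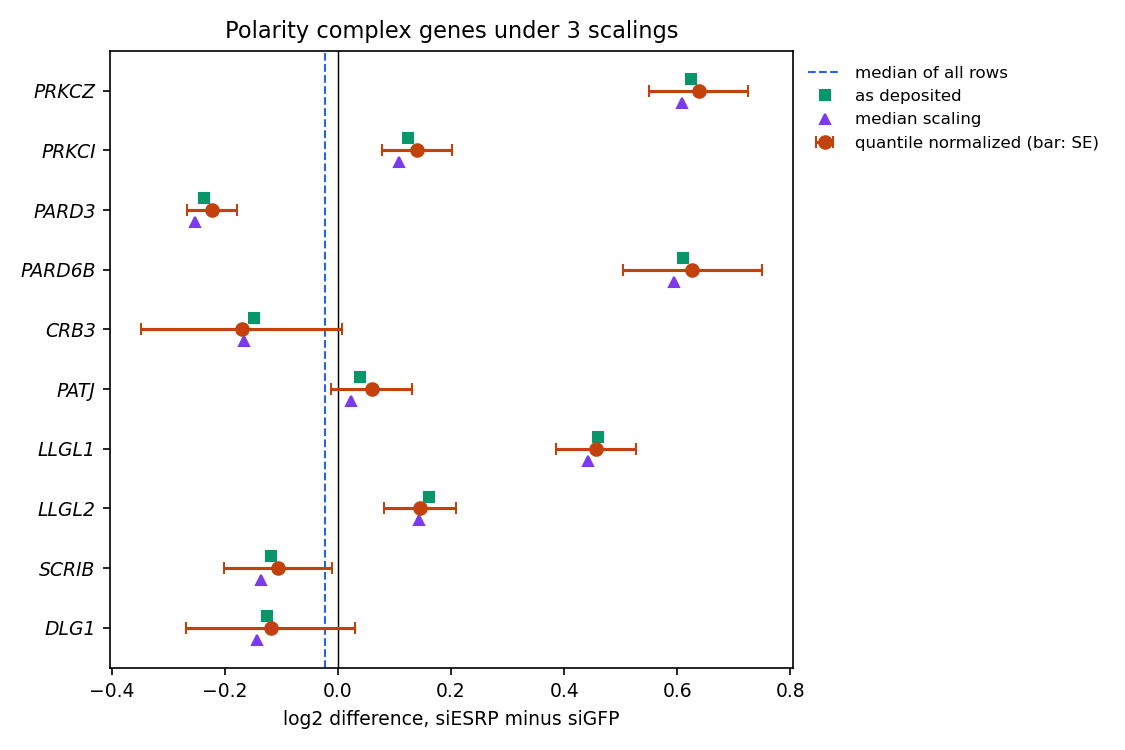
Log2 difference (siESRP minus siGFP) of each of the 10 genes after quantile normalization, with its SE, beside the value on the deposited scale and after median scaling; the dashed line is the median of all rows, −0.02. PRKCZ, PARD6B and LLGL1 lie to the right at 0.64, 0.63 and 0.46 and PARD3 to the left at −0.22, and no gene changes side between scalings.

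By the correlation of log2 values over the 8 arrays, the genes most like PRKCZ were LMBR1 (Pearson r = 0.997), SLC25A36 (0.995), IKZF2 (0.993), CAPG (0.992) and QARS1 (0.992). They came from 9276 genes with a mean of at least 100, of which 657 had r of at least 0.9, and no p is given. All 5 had a higher mean in siESRP, and a shared difference between the groups by itself raises such a correlation. CAPG, an actin filament capping protein, went from 615 ± 36.6 to 992 ± 102, and IKZF2, a zinc-finger transcription factor, from 388 ± 44.9 to 665 ± 87.4.

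Polarity genes outside the 10 were taken from 6 lists of partners, relatives and regulators with 73 genes, of which 63 had a row of their own and were tested in the fit over all rows. Of these 63, 15 rose, 2 fell and 46 did not pass (limma, adjusted p under 0.05), or 17 against a background of 20.2% of all rows. Of the 63, 51 had a mean of at least 100, and among all genes that bright 29.4% passed, 15.6% higher and 13.8% lower. The counts by list below stand beside these same shares, and no list was tested as a set. The median log2 difference of the 63 was 0.11. The count was 10 on the deposited scale and 11 without siGFP replicate 1. The lists were chosen with earlier results of these data known, so these counts describe the lists and are no test of them. Adjusted p-values of single genes below come from this fit and carry the same limit.

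**Figure D3:**
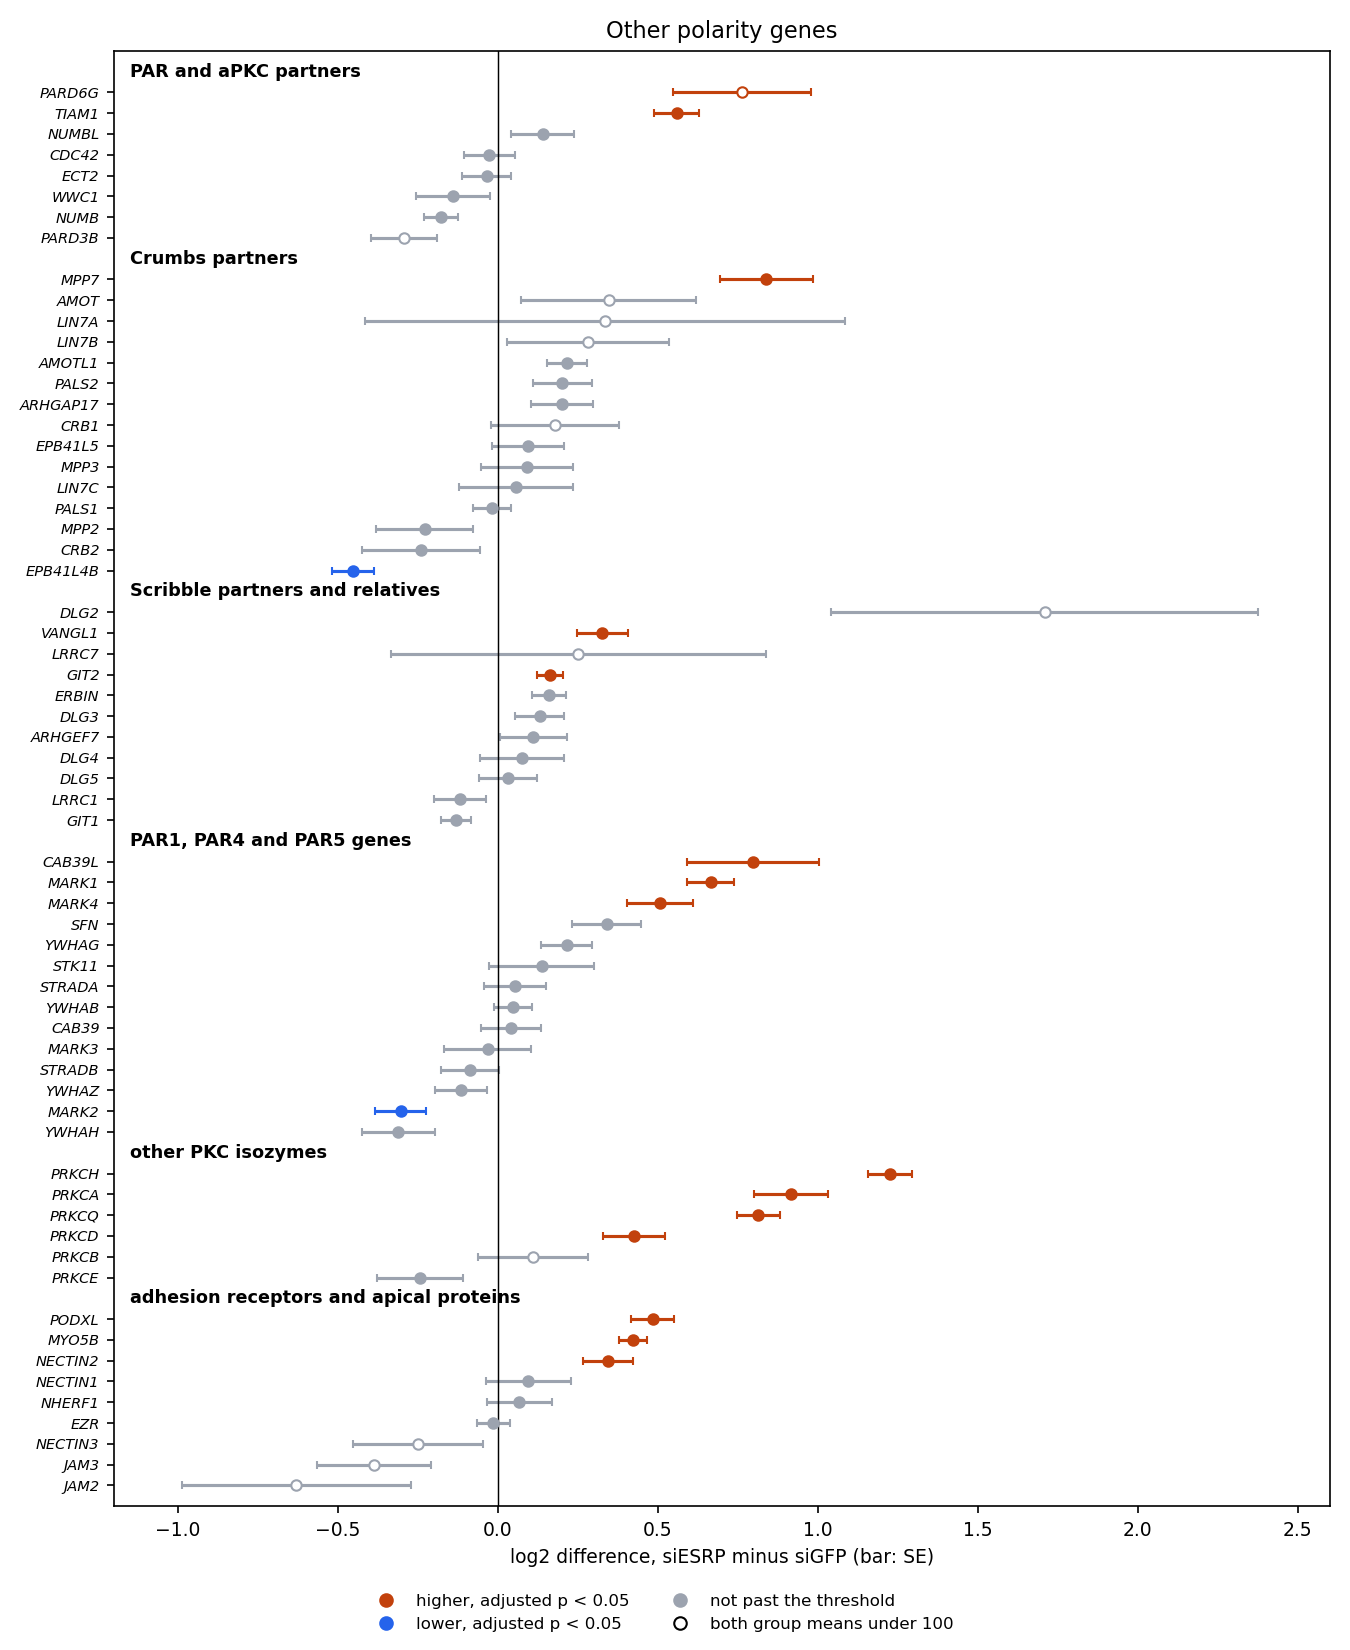
Log2 difference (siESRP minus siGFP) with its SE for the 63 other polarity genes, grouped by list; colour marks genes past the limma threshold, and open symbols mark genes with both group means under 100. The 4 coloured PKC isozyme genes lie between 0.43 and 1.23, while EPB41L4B at −0.45 and MARK2 at −0.30 are the 2 that fell.

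The other PKC isozymes respond to diacylglycerol. Of 6 measured, 4 rose, 0 fell and 2 did not pass, with a list median of 0.62. PRKCH, PKC eta of stratified epithelia, measured 304, 285, 310.5 and 274 in siGFP and 729, 734, 641 and 648 in siESRP. It rose 2.34-fold from 293 ± 16.9 to 688 ± 50.3 (SD, n = 4 each; log2 difference 1.23 ± 0.07 SE, adjusted p = 0.000115), and its groups lay far apart. PRKCA rose 1.89-fold from 161 ± 26.3 to 302 ± 11.4 (adjusted p = 0.0022) and PRKCQ, best known from T cells, 1.76-fold from 119 ± 7.58 to 210.0 ± 13.1 (adjusted p = 0.000436). These 3 passed in all 15 alternatives. PRKCD rose 1.34-fold from 654 ± 55.2 to 881 ± 98.6 (adjusted p = 0.0207). That call ended without siGFP replicate 1, 3 or 4 or siESRP replicate 4 (adjusted p from 0.0535 to 0.058). PRKCE was 855 ± 143 and 717 ± 73.1 (adjusted p = 0.268), and PRKCB was near background at 18.6 and 19.8.

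**Figure D4:**
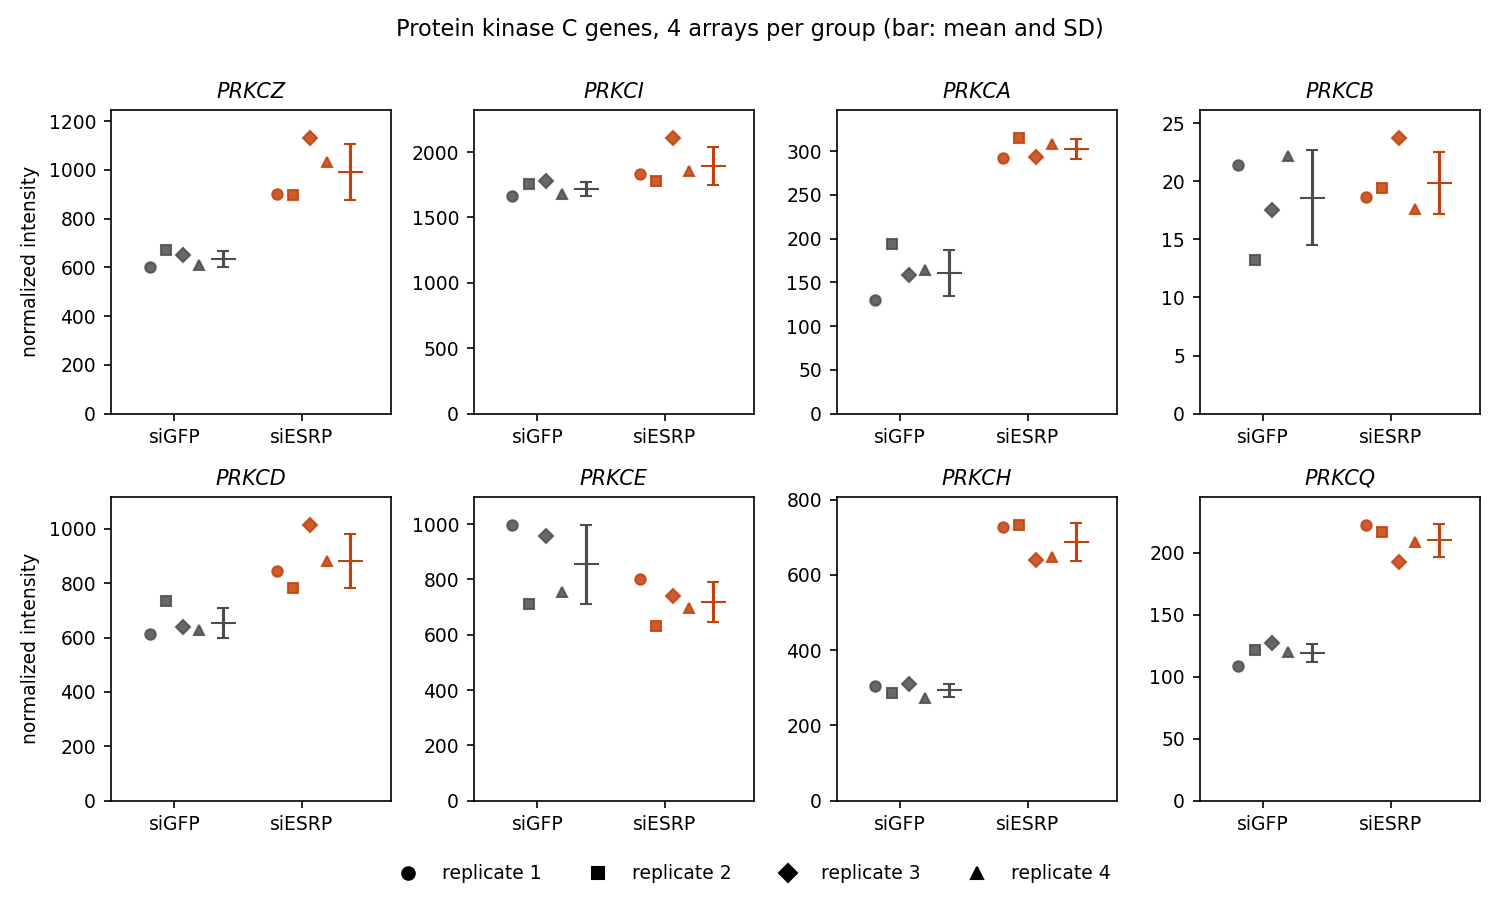
Quantile-normalized intensity (linear, from 0) of 8 PKC genes on each array, with group means and SD (n = 4); PRKCZ and PRKCI are the atypical isozymes. PRKCH, PRKCQ and PRKCA show siESRP arrays well above siGFP arrays, PRKCE shows overlapping groups, and PRKCB stays under 25 on every array.

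Among the PAR and atypical PKC partners, 2 of 8 measured genes rose and 0 fell. TIAM1, a Rac activator that binds PAR3, measured 252, 289, 278 and 278 in siGFP and 425, 433, 372 and 388 in siESRP. It rose 1.47-fold from 274 ± 15.99 to 405 ± 29.3 (adjusted p = 0.00204). PARD6G, a relative of PARD6B, was dim and went from 34.9 ± 7.23 to 60.0 ± 14.1 (adjusted p = 0.0478); its call ended without any 1 array other than siESRP replicate 4 (adjusted p from 0.0674 to 0.114). PARD3B, the relative of PARD3, was dim too, at 37.8 ± 4.87 and 30.6 ± 2.59 (adjusted p = 0.0932). The row of PARD6A is shared with ACD, so its fall from 132 ± 9.87 to 99.97 ± 12.9 (adjusted p = 0.0348) cannot be assigned to either gene. CDC42, the GTPase that binds PAR6, was 5952 ± 512 and 5835 ± 386 (adjusted p = 0.866).

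Of the 15 measured Crumbs partners, 1 rose and 1 fell. MPP7, a scaffold that binds DLG1 and LIN7 proteins, rose 1.79-fold from 294 ± 25.2 to 533 ± 106 (adjusted p = 0.00784). EPB41L4B, a FERM-domain protein, fell 1.37-fold from 185 ± 11.8 to 135 ± 7.80 (adjusted p = 0.00357). PALS1, the scaffold that joins CRB3 to PATJ, was 2097 ± 140 and 2067 ± 83.4 (log2 difference −0.02 ± 0.06 SE, adjusted p = 0.879). CRB2 was 147 ± 11.7 and 127 ± 31.7 (adjusted p = 0.426), and CRB1 was near background at 18.4 and 20.9.

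Scribble partners and the DLG or LAP-family relatives gave 2 genes that rose out of 11 measured, and 0 that fell. VANGL1, a membrane protein of planar cell polarity, rose 1.25-fold from 692 ± 45.5 to 869 ± 80.8 (adjusted p = 0.029), and the call ended without siGFP replicate 1 or 4 or siESRP replicate 2 (0.0639 to 0.0757). VANGL1 has a second, dimmer row, and with both rows averaged the call also ended (adjusted p = 0.0623), as it did after scaling arrays to a common median (0.111) and without any scaling (0.218). Over the alternatives its adjusted p was 0.0193 to 0.218. GIT2, an ARF GTPase-activating adaptor, rose 1.12-fold from 649 ± 19.8 to 726 ± 21.2 (adjusted p = 0.032), and the call ended without any 1 array other than siGFP replicate 4 or siESRP replicate 3 (0.0661 to 0.0823). The GIT2 call also ended without the dimmest 25% of rows and with a trended and robust eBayes (limma adjusted p = 0.105 in each). It passed in 4 of the 15 alternatives. The DLG1 relatives DLG3, DLG4 and DLG5 had log2 differences of 0.13 ± 0.08, 0.07 ± 0.13 and 0.03 ± 0.09 SE and did not pass. DLG2 was near background, at 2.59 and 7.31, and passed only without siGFP replicate 3 (adjusted p = 0.0271; 0.0271 to 0.472 over the alternatives).

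The PAR1 kinases of the MARK family, which phosphorylate microtubule-associated proteins and PAR3, went both ways. With the PAR4 kinase LKB1 (STK11), its partners and the 14-3-3 genes, 3 of 14 rose and 1 fell. MARK1 measured 130.5, 149, 160.2 and 134 in siGFP and 229, 221, 219 and 238 in siESRP, and rose 1.58-fold from 143 ± 13.8 to 227 ± 8.81 (adjusted p = 0.0014). MARK4 rose 1.42-fold from 200.3 ± 15.7 to 286 ± 35.3 (adjusted p = 0.0144). MARK2 fell 1.23-fold from 2458 ± 205 to 1989 ± 143 (adjusted p = 0.0366), a call that ended without any 1 array other than siGFP replicate 2 (0.0505 to 0.0815); it was named after its values were seen. CAB39L, a relative of the LKB1 scaffold CAB39, rose 1.74-fold from 147 ± 31.0 to 257 ± 56.7 (adjusted p = 0.0353), and its call ended without any 1 array other than siGFP replicate 2 or siESRP replicate 3 (0.0528 to 0.0928). STK11 itself was 547 ± 61.1 and 609 ± 124 (adjusted p = 0.627).

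Of the 9 measured adhesion receptors and apical membrane proteins, 3 rose and 0 fell. MYO5B, the motor of apical recycling endosomes, rose 1.34-fold from 317 ± 7.89 to 425 ± 16.9 (adjusted p = 0.000965). PODXL, the apical sialomucin podocalyxin, rose 1.40-fold from 929.8 ± 47.5 to 1301 ± 96.1 (adjusted p = 0.00316). NECTIN2, an adhesion receptor of cell junctions, rose 1.27-fold from 922 ± 56.1 to 1172 ± 108 (adjusted p = 0.0215), a call that ended without siGFP replicate 1 (0.0509) or 3 (0.0516). EZR, the apical membrane linker ezrin, was 3917 ± 128 and 3881 ± 213 (adjusted p = 0.897). Across the lists, 7 of the 17 genes passed in all 15 alternatives: PRKCH, PRKCA, PRKCQ, MYO5B, MARK1, TIAM1 and EPB41L4B. On the deposited scale the calls of GIT2, MARK2, NECTIN2, PARD6G, PODXL, PRKCD and VANGL1 ended (adjusted p from 0.0772 to 0.391). With median scaling those of GIT2, MARK2, PARD6G and VANGL1 ended (0.0997 to 0.261).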

How the data were processed

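Each of the 8 samples was run on 1 exon array. Ribosomal RNA was removed from 1 µg of total RNA before biotin labelling, per the labels' protocols. The authors deposited 1 table of linear intensity values with 18495 rows, whole numbers of which 2.70% to 4.02% per array lie below 0; how these intensities were corrected, summarized and scaled is not given in the sources used here. Array medians ran from 233 to 286. Here arrays were quantile normalized, values below 0 set to 0, and log2(value + 1) was taken; fold changes are on that scale, which understates the change of dim rows. The test was limma (3.58.1, R 4.3.3), lmFit and eBayes on all 8 arrays, two-sided. P-values were adjusted by Benjamini-Hochberg across the 18495 rows, and adjusted p under 0.05 counts as passed.

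Symbols are those of GEO's annotation of the platform: 14577 rows had 1 symbol, 2849 several and 1069 none. A gene with several rows is given by its brightest. The genes and lists were chosen with earlier results of these data known. Named were all 10 genes, their stated relatives, the 15 smallest p among other called genes with a group mean of at least 100, and the 5 genes most correlated with PRKCZ. The steps were tested on simulated data, where 41 of 100 rows changed 1.5-fold and 85 of 100 rows changed 2-fold were called. Far fewer rows were changed in the simulation than were called in these data, so these shares need not hold here. A gene that did not pass may still differ, within the limits that its log2 difference and SE set. The number of arrays limits the precision. Alternatives were the deposited scale, median scaling, a pseudocount of 16, leaving out the dimmest 25% of rows, a trended and robust eBayes, the replicate number as a block, the mean over a gene's rows, and leaving out each array.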

Additional observations from a re-analysis of the deposited data

Results flagged for a closer look

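Among the values of the 10 genes and the named relatives, 1 array stood apart from the other 3 of its group in 4 of 68 groups of 4 values, by a gap above Dixon's 95% critical value for 4 values, taken as a share of the group's range. Chance flags about 1 in 20 groups, or 3.4 of 68. For LLGL1, siGFP replicate 2 was high at 457 against 422 to 426 (gap ratio 0.888), still below every siESRP array. For MYO5B, siGFP replicate 3 was low at 305 against 320 to 321 (0.906). PARD6G had a low siGFP replicate 3 at 24.1 against 37.2 to 39.2 (0.871). DLG2 had a high siESRP replicate 3 at 9.63 against 6.5 to 6.63 (0.960). PARD6G is a dim row, and DLG2 is near background.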

How the results depend on the processing

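None of the 10 genes changed direction under the 15 alternatives, and their median log2 difference stayed between 0.05 and 0.12. Only the alternatives in scaling, pseudocount and arrays left out could change these values. On the deposited scale, without scaling between arrays, 1673 rows were called, 1565 of them among the 3729 of the reported fit, and 10 of the 63 other polarity genes. Same-numbered arrays did not deviate together, with correlations of deviations of 0.15, 0.09, −0.27 and −0.02 for numbers 1 to 4, so the numbers are not taken as pairs. With the replicate block, 2292 rows and 9 of the 63 genes were called, 2193 of the rows shared with the reported fit, and the 10 genes gave 3 calls. Leaving out 1 array gave 2719 to 3793 called rows, 11 to 16 called polarity genes of the 63 and 4 of the 10 genes. The cause of these shifts was not tested. Of the 17 called polarity genes, 10 lost the call under at least 1 alternative; MARK4 and MPP7 lost it only with the block (adjusted p = 0.0505 and 0.0518). Levels near background, as for CRB1, DLG2 and PRKCB, cannot be told from no signal here.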
